A study of Mus musculus with 4 samples.

Results

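The genes described here encode 8 proteins that fat tissue releases into the blood: adiponectin (Adipoq), leptin (Lep), resistin (Retn), haptoglobin (Hp), retinol-binding protein 4 (Rbp4), angiotensinogen (Agt), the NAD-synthesis enzyme Nampt, which also circulates, and the esterase paraoxonase 1 (Pon1). They were chosen by name as adipokines and secreted adipocyte proteins, with earlier results of these data known. All 8 had a value in each library among 13677 measured genes. RNA was sequenced from the inguinal fat pad of the mouse, a white depot that lies under the skin. There were 2 libraries labelled FLCNKO, from animals described as an adipose knockout of Flcn, and 2 libraries labelled WT, for wildtype. The title of the series asks how folliculin, the product of Flcn, acts with the mTOR pathway in the browning of fat. The labels state no age, sex, strain, Cre driver or deleted part of Flcn. Nothing in the labels ties a library to a single animal, so each p-value reflects how far these few libraries scatter, which may be technical.

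Adipocytes are endocrine cells. Adiponectin raises insulin sensitivity through the receptors AdipoR1 and AdipoR2, and leptin reports the size of the fat store to the brain. Resistin is made by adipocytes in mice and mainly by macrophages in humans. Haptoglobin binds free haemoglobin, Rbp4 carries retinol in plasma, angiotensinogen is the precursor of the angiotensins, and Pon1 travels on high-density lipoprotein. Hp, Rbp4, Agt and Pon1 are also abundant products of the liver.

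The deposited values are on a log2 scale and were distributed almost alike in every library, with medians from 10.7636 to 10.7645. They are not counts, so the depth is unknown. A log2 difference below is the FLCNKO mean minus the WT mean, tested with limma over all 13677 genes, with Benjamini-Hochberg adjusted p-values and a threshold of 0.05. Flcn had values of 12.35 and 12.12 in the FLCNKO-labelled libraries and 12.36 and 12.21 in the WT libraries, a log2 difference of -0.05 ± 0.13 (SE; adjusted p = 0.852). This gene-level value did not separate the groups, so the groups are called by their labels. The median absolute log2 difference over all genes was 0.247 within FLCNKO, 0.147 within WT and from 0.268 to 0.307 across the groups.

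Of the 8 genes, Pon1 and Hp fell and none rose at the threshold. Over all genes, 0.614% were called lower and 0.98% higher. At an unadjusted p under 0.05, 5 of the 8 were lower and 1 higher, against 10.3% and 12.1% of all genes. Because the members and lists were chosen with earlier results known, their counts beside shares of all genes are a description only. By the spread of the libraries alone, 5 of the 8 had both FLCNKO values below both WT values (Pon1, Rbp4, Hp, Adipoq and Retn), against 25.4% of all genes, and Agt had both above, against 29.2% of all genes. Lep and Nampt had groups that overlapped. The median log2 difference of the 8 genes was -0.48, and that of all genes was 0.0046. The set was therefore not uniform, and its differences ran from -2.97 for Pon1 to 0.60 for Agt.

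**Figure D1:**
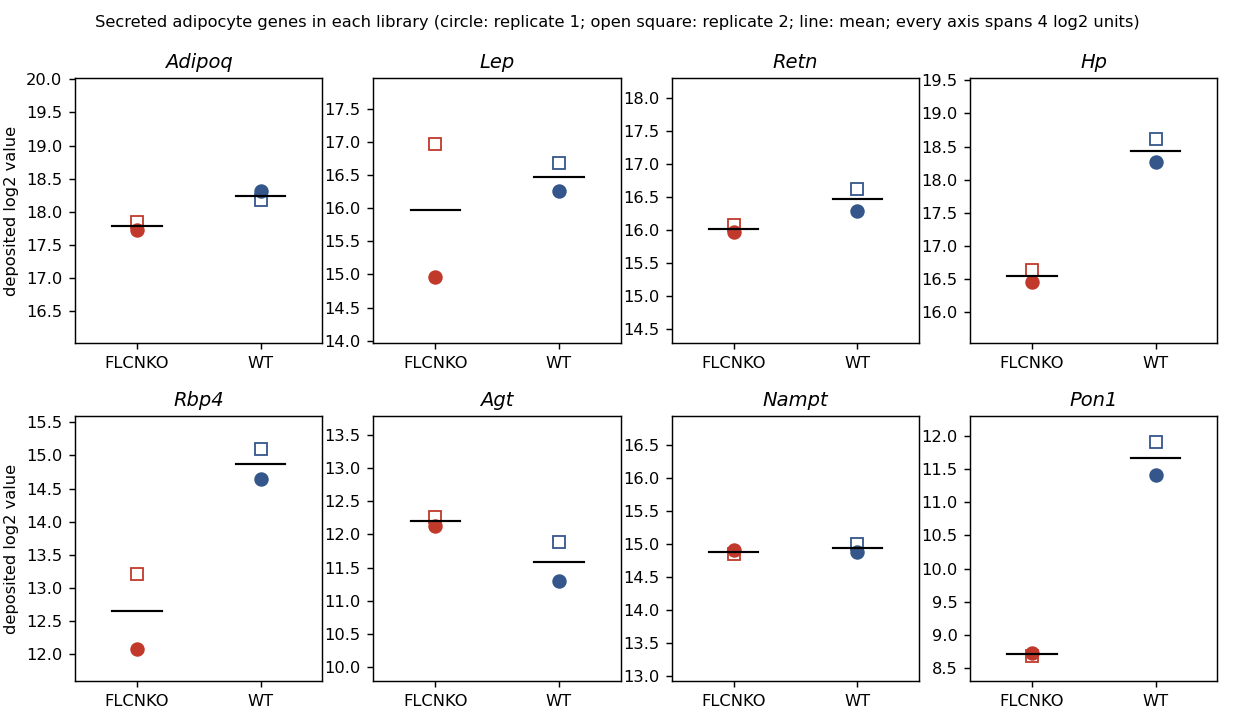
Deposited log2 value of each of the 8 genes (vertical axis, every panel spanning 4 log2 units) in the FLCNKO and WT libraries (horizontal axis); circles are replicate 1, open squares replicate 2 and lines the group means of 2 libraries. Pon1 and Hp have tight FLCNKO pairs well below the WT pairs, whereas the 2 FLCNKO values of Lep, 14.96 and 16.97, lie on either side of both WT values.

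Pon1, an esterase that hydrolyses lactones and protects lipoproteins from oxidation, had log2 values of 8.72 and 8.68 in the FLCNKO-labelled libraries, against 11.42 and 11.92 in the WT libraries. The FLCNKO values were nearly equal to each other and lay far below the lower WT value. The group means were 8.70 ± 0.03 in FLCNKO and 11.67 ± 0.35 in WT (SD, n = 2 each). Pon1 fell by 2.97 on the log2 scale (95% interval -3.49 to -2.45; limma adjusted p = 0.0336), which is 7.84-fold lower in FLCNKO. The 4 differences between an FLCNKO and a WT library ran from -3.24 to -2.70. Only 0.278% of all genes had a log2 difference this low or lower. By rank of value among all genes of a library, which is not per length, Pon1 stood at 10534 and 10583 in FLCNKO and at 5143 and 3823 in WT.

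The differences of its near relatives were smaller. Pon2, an intracellular paraoxonase, had values of 12.96 and 13.24 in FLCNKO and 13.32 and 13.22 in WT, a log2 difference of -0.17 ± 0.13 (SE; adjusted p = 0.522). Pon3, which like Pon1 is found on lipoprotein, had values of 13.42 and 13.42 in FLCNKO and 13.61 and 13.76 in WT, a log2 difference of -0.27 ± 0.11 (adjusted p = 0.238). The difference between the paraoxonases was not itself tested. No stretch of 31 bases in the transcripts of Pon1 occurred in transcripts of another gene. Of 13 measured paraoxonase and high-density lipoprotein genes, 0 were called in either direction, and the median log2 difference was -0.27. At an unadjusted p under 0.05, 2 were higher and 3 lower, against 12.1% and 10.3% of all genes. The smallest p in that list belonged to Clu, the apolipoprotein clusterin, at 11.86 and 12.31 in FLCNKO and 12.92 and 13.32 in WT, which did not pass (-1.04 ± 0.21, adjusted p = 0.0792).

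Hp, the haemoglobin scavenger, had log2 values of 16.45 and 16.64 in the FLCNKO-labelled libraries, against 18.27 and 18.61 in the WT libraries. The groups were apart by 1.63 at their nearest. Group means were 16.54 ± 0.14 in FLCNKO and 18.44 ± 0.24 in WT (SD, n = 2 each), and Hp fell by 1.90 on the log2 scale (95% interval -2.36 to -1.43; limma adjusted p = 0.0345), 3.72-fold lower in FLCNKO. Over all genes, 0.929% had a log2 difference as low or lower. By rank of value, which is not per length, Hp stood at 84 and 73 in FLCNKO and at 19 and 15 in WT among 13677 genes.

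Haptoglobin belongs to the acute-phase proteins, which the liver and also fat release in inflammation. Of 18 measured genes of haemoglobin handling and the acute phase, 0 were called in either direction over all genes. At an unadjusted p under 0.05, 10 were lower and 1 higher, against 10.3% and 12.1% of all genes, and 13 had both FLCNKO values below both WT values, against 25.4% of all genes. The median log2 difference of this list was -0.67. Those with the smallest p were the biliverdin reductase gene Blvrb (-0.65 ± 0.10, SE; adjusted p = 0.0556), the ferroxidase ceruloplasmin gene Cp (-1.01 ± 0.16, adjusted p = 0.0586), the serpin gene Serpina3c (-1.39 ± 0.26, adjusted p = 0.0693) and the orosomucoid gene Orm3 (-1.33 ± 0.29, adjusted p = 0.0886). The haptoglobin-haemoglobin receptor gene Cd163, a macrophage gene, had values of 13.68 and 13.66 in FLCNKO and 14.77 and 14.12 in WT (-0.77 ± 0.23, adjusted p = 0.138).

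Rbp4, the plasma carrier of retinol, had log2 values of 12.08 and 13.21 in the FLCNKO-labelled libraries, against 14.64 and 15.10 in the WT libraries. Both FLCNKO values were below both WT values, but they lay 1.12 apart from each other and the WT values 0.46 apart. The log2 difference of -2.23 ± 0.39 (SE; 95% interval -3.23 to -1.22) was larger than that of Hp and missed the threshold (limma adjusted p = 0.064). When each library was centred on white adipocyte markers, the difference was -2.30 and passed (adjusted p = 0.0316), while with a filter, robust estimation and no trend the adjusted p was 0.0565, 0.0624 and 0.16. Over all genes, 0.6% had a difference this low or lower.

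Around Rbp4, 22 genes of retinol transport and retinoid metabolism were measured and 0 were called. At an unadjusted p under 0.05, 6 were higher and 2 lower, against 12.1% and 10.3% of all genes. The median log2 difference of the 22 genes was -0.20. The genes with the smallest p pointed in both directions. The retinoid X receptor gene Rxrg was at 11.35 and 11.26 in FLCNKO and 10.53 and 10.40 in WT (0.84 ± 0.12, SE; adjusted p = 0.0526), and its relative Rxra at 13.62 and 13.61 in FLCNKO and 14.14 and 14.18 in WT (-0.55 ± 0.10, adjusted p = 0.0654). The dehydrogenase gene Rdh13 (0.87 ± 0.15, adjusted p = 0.0603) and the retinol saturase gene Retsat (0.74 ± 0.13, adjusted p = 0.0622) had positive differences without passing.

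Agt was the 1 gene of the 8 with higher values in FLCNKO. It had log2 values of 12.13 and 12.27 in the FLCNKO-labelled libraries, against 11.30 and 11.88 in the WT libraries. The groups were apart by 0.25 at their nearest, less than the 0.58 between the WT libraries. The log2 difference of 0.60 ± 0.21 (SE; 95% interval 0.06 to 1.15) did not pass (adjusted p = 0.19).

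Downstream of angiotensinogen, the gene of the angiotensin-converting enzyme, Ace, which makes angiotensin II, fell. Ace had values of 13.95 and 13.73 in FLCNKO and 15.20 and 15.11 in WT, and it fell by 1.32 on the log2 scale (SE 0.12; limma adjusted p = 0.0336). Of the 31-base stretches of Ace, 4.5% occur on either strand in transcripts of Gm11651, and no source used here says whether counting used strand. Ace was the 1 call, downward, among 10 measured genes of the renin-angiotensin system, against 0.614% of all genes called lower and 0.98% higher. The median log2 difference of the 10 genes was -0.25. At an unadjusted p under 0.05, 1 was higher and 5 lower, against 12.1% and 10.3% of all genes. The higher one was Atp6ap2 (0.33 ± 0.12, adjusted p = 0.203). Both FLCNKO values were below both WT values for 5 and above for 2, against 25.4% and 29.2% of all genes. The angiotensin II receptor gene Agtr1a had values of 9.66 and 9.61 in FLCNKO and 10.06 and 10.29 in WT (-0.54 ± 0.16, adjusted p = 0.134). The mast cell chymase gene Cma1 (-0.97 ± 0.29, adjusted p = 0.144) and the aminopeptidase gene Anpep (-0.65 ± 0.21, adjusted p = 0.161) did not pass either.

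Adipoq and Retn had smaller negative differences than Pon1, Hp and Rbp4. Adipoq, the adiponectin gene, had log2 values of 17.72 and 17.85 in the FLCNKO-labelled libraries, against 18.31 and 18.17 in the WT libraries. The groups did not overlap, and the log2 difference of -0.46 had a 95% interval from -0.86 to -0.05 without passing the adjusted threshold (limma adjusted p = 0.185). Retn, the resistin gene, had values of 15.96 and 16.07 in FLCNKO and 16.29 and 16.62 in WT. Its difference of -0.44 (95% interval -0.85 to -0.03; adjusted p = 0.198) was close to that of Adipoq. On a linear scale the FLCNKO mean was 1.37-fold lower for Adipoq and 1.36-fold lower for Retn.

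The receptors of adiponectin had differences near 0. Adipor1 had values of 13.66 and 13.75 in FLCNKO and 13.59 and 13.57 in WT (0.13 ± 0.10, SE; adjusted p = 0.528), and Adipor2 had 16.78 and 16.48 in FLCNKO and 16.65 and 16.48 in WT (0.06 ± 0.16, adjusted p = 0.856). Cdh13, which encodes the adiponectin-binding T-cadherin, had a difference of -0.17 ± 0.16 (adjusted p = 0.593). Of 12 measured receptors and binding partners 0 were called. At an unadjusted p under 0.05, 1 was higher and 3 were lower, against 12.1% and 10.3% of all genes. The higher one was the adaptor gene Appl2 (0.63 ± 0.10, adjusted p = 0.0556), and the lower ones were Tlr4, Agtr1a and Cd163. Among 11 genes of adiponectin assembly and secretion 0 were called. At an unadjusted p under 0.05, 0 were higher and 2 lower, against the same shares of all genes. The lower ones were the disulfide isomerase gene P4hb (-0.53 ± 0.13, adjusted p = 0.105) and the lysyl hydroxylase gene Plod2 (-0.78 ± 0.20, adjusted p = 0.108).

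Lep, the leptin gene, had log2 values of 14.96 and 16.97 in the FLCNKO-labelled libraries, against 16.26 and 16.69 in the WT libraries. FLCNKO replicate 1 was the lowest of the 4 libraries and FLCNKO replicate 2 the highest. The log2 difference of -0.51 therefore had a 95% interval from -2.19 to 1.17 (limma adjusted p = 0.698). It was 0.50 without FLCNKO replicate 1 and -1.52 without FLCNKO replicate 2, and neither direction can be given for this gene. The leptin receptor gene Lepr had values of 8.22 and 8.19 in FLCNKO and 8.57 and 8.54 in WT (-0.35 ± 0.21, SE; adjusted p = 0.388). In the 11 genes of leptin receptor signalling 0 were called. At an unadjusted p under 0.05, 1 was higher and 2 lower, against 12.1% and 10.3% of all genes. The 2 lower ones were Stat3, the transcription factor of the receptor (-0.40 ± 0.11, adjusted p = 0.118), and Irs1 (-0.63 ± 0.22, adjusted p = 0.191).

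Nampt, the rate-limiting enzyme of NAD salvage from nicotinamide, varied least. It had log2 values of 14.90 and 14.85 in FLCNKO and 14.87 and 15.00 in WT. Its difference of -0.06 had a 95% interval from -0.35 to 0.23 (limma adjusted p = 0.789), so a change as large as that of Hp in either direction lay outside that interval. The other genes of NAD synthesis and use had a median log2 difference of 0.26 over 22 measured genes. Of these 0 were called, and at an unadjusted p under 0.05 8 were higher and 0 lower, against 12.1% and 10.3% of all genes. Nmnat1, which carries out the step after Nampt in the nucleus, had values of 10.48 and 10.43 in FLCNKO and 9.62 and 9.61 in WT (0.84 ± 0.13, SE; adjusted p = 0.0561). The mitochondrial genes Nadk2 (0.86 ± 0.18, adjusted p = 0.0824) and Sirt3 (0.80 ± 0.17, adjusted p = 0.0835) had similar differences.

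**Figure D2:**
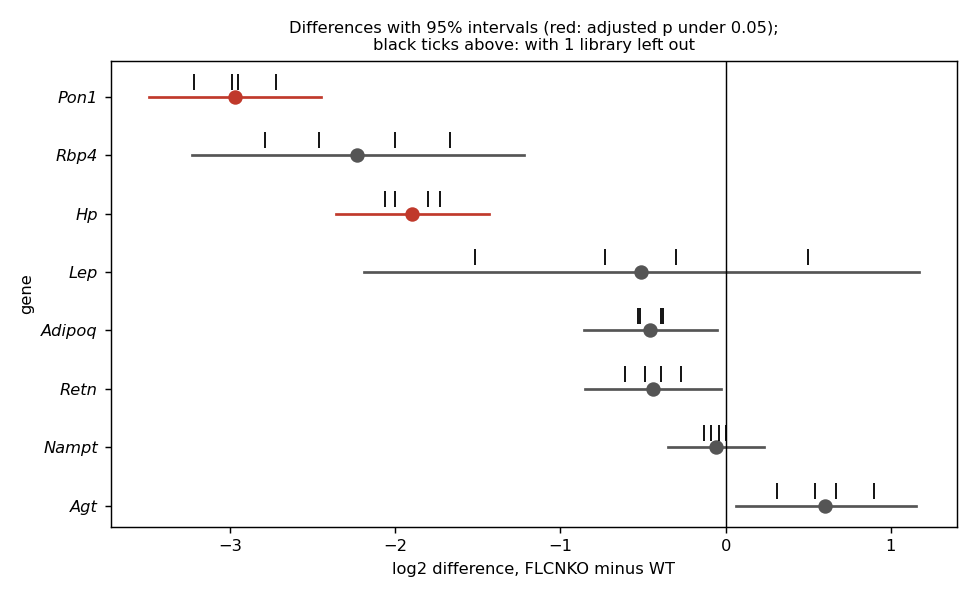
Log2 difference, FLCNKO minus WT (horizontal axis), of each of the 8 genes (vertical axis) with its 95% limma interval; red marks an adjusted p under 0.05 and black ticks the difference with 1 library left out. The ticks of Pon1 stay between -3.22 and -2.72 and those of Hp between -2.06 and -1.73, whereas those of Lep run from -1.52 to 0.50.

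Leaving out 1 library ended the calls of Pon1 and Hp. Without any 1 library, the log2 difference of Pon1 lay between -3.22 and -2.72 and that of Hp between -2.06 and -1.73. Rbp4 moved further, to -1.67 without FLCNKO replicate 1 and -2.79 without FLCNKO replicate 2. With 3 libraries limma called 0 of all genes in either direction (from 756 to 1733 were higher and from 639 to 1722 lower at an unadjusted p under 0.05). The adjusted p then lay between 0.0649 and 0.212 for Pon1 and between 0.0649 and 0.246 for Hp. Without a trend of variance on expression limma also called 0 genes (1508 higher and 1194 lower at an unadjusted p under 0.05), with an adjusted p of 0.14 for both.

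Values of different genes can be set beside each other only per length, so the log2 value minus the log2 of the length in kilobases of the longest coding transcript in GENCODE M21 was used. In the FLCNKO-labelled libraries the order from high to low was Adipoq (mean 17.41), Hp (16.12), Retn (15.83), Lep (14.26), Nampt (12.69), Rbp4 (12.43), Agt (11.28) and Pon1 (8.10). In the WT libraries it was Hp (18.01), Adipoq (17.87), Retn (16.27), Lep (14.77), Rbp4 (14.66), Nampt (12.76), Pon1 (11.07) and Agt (10.68). On this per-length scale, Rbp4 overlapped Nampt between its libraries in FLCNKO. In WT the neighbours Hp and Adipoq, Lep and Rbp4, and Pon1 and Agt overlapped each other. Hp was thus below Adipoq in both FLCNKO libraries, at 16.02 and 16.22 against 17.35 and 17.48, and overlapped it in WT, at 17.84 and 18.18 against 17.94 and 17.80.

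Markers of the cells that could carry these transcripts were read in the same libraries. The 20 white adipocyte markers had log2 summed levels of 22.73 and 22.81 in FLCNKO and 22.82 and 22.74 in WT, with 0 genes called and 3 higher and 1 lower at an unadjusted p under 0.05. These sums are weighted to the genes with the highest values, Fabp4, Car3, Lpl and Cfd. Of the 20 markers, 5 had both FLCNKO values above both WT values and 2 had both below, against 29.2% and 25.4% of all genes. Their log2 differences ran from -1.13 for Cfd to 1.22 for Gpd1. Lower members of the set were seen beside adipocyte marker sums that overlapped, and the adipocyte content was not tested. Among other markers, 3 of 12 brown and beige adipocyte genes rose, with summed levels of 17.76 and 16.48 in FLCNKO and 14.60 and 14.07 in WT. At an unadjusted p under 0.05, 8 of the 12 were higher and 0 lower. In the fibroblast list 5 of 15 genes fell, with sums of 19.28 and 19.11 in FLCNKO and 20.32 and 20.15 in WT. All 15 were lower at an unadjusted p under 0.05, and all 15 had both FLCNKO values below both WT values. In the macrophage list 2 of 13 genes fell, with sums of 17.11 and 16.88 in FLCNKO and 17.93 and 17.71 in WT. At an unadjusted p under 0.05, 9 of the 13 were lower and 0 higher, and 11 had both FLCNKO values below both WT values. Over all genes, 0.614% were called lower and 0.98% higher. At an unadjusted p under 0.05, 10.3% of all genes were lower and 12.1% higher, and 25.4% had both FLCNKO values below both WT values. Of 11 listed markers of mammary and skin epithelium 5 were measured, and Trp63 fell (-2.52, adjusted p = 0.0478). At an unadjusted p under 0.05, 2 of the 5 were lower and 0 higher. Their sums were 9.18 and 9.43 in FLCNKO and 10.60 and 11.38 in WT. These sums are weighted to Trp63 itself, at 8.13 and 7.88 in FLCNKO and 10.07 and 10.98 in WT. Krt8 (-0.01) and Krt18 (-0.46) had groups that overlapped. Among 7 mast cell markers 0 were called and 4 were lower at an unadjusted p under 0.05, with sums of 13.34 and 12.71 in FLCNKO and 13.86 and 13.81 in WT. Among 10 T and B lymphocyte markers 0 were called and 3 were lower at an unadjusted p under 0.05, with sums of 11.70 and 10.31 in FLCNKO and 13.44 and 11.53 in WT. None of the 10 endothelial, 7 smooth muscle and pericyte, 4 erythrocyte and 2 neutrophil markers measured was called. The median log2 differences of these lists were 0.04, 0.27, -0.66 and 0.35. At an unadjusted p under 0.05, 1 endothelial, 1 smooth muscle and pericyte and 1 erythrocyte marker were lower, and 0 were higher. Skeletal muscle markers, of which 0 of 15 were called or had an unadjusted p under 0.05, split the libraries within each group, with sums of 16.25 and 13.66 in FLCNKO and 17.30 and 14.36 in WT. The part of these cell types in the differences of the 8 genes was not tested. In bulk tissue, fewer cells of a type and less RNA per cell cannot be told apart.

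Because Hp, Rbp4, Agt and Pon1 are also liver genes, the 11 hepatocyte markers were read gene by gene, and WT replicate 2 held the highest value for 9 of the 11. Trf was nearly equal in both WT libraries, at 14.03 and 14.10. Serpina1a was highest in FLCNKO replicate 2, at 7.68 and 10.84 in FLCNKO and 5.82 and 10.53 in WT, and Cyp2e1 was at 18.79 in replicate 2 of both groups. Apoa1, the main apolipoprotein of high-density lipoprotein, had 6.24 and 6.04 in FLCNKO and 5.40 and 10.32 in WT. Ahsg, the fetuin gene, had 5.94 and 5.85 in FLCNKO and 4.89 and 10.57 in WT, and the albumin gene Alb had 11.02 and 11.63 in FLCNKO and 12.10 and 14.43 in WT. The medians of the list were 6.24 and 6.43 in FLCNKO and 5.40 and 10.53 in WT. The summed level, which was 18.48 and 18.83 in FLCNKO and 18.27 and 18.94 in WT, is carried by Cyp2e1, with values from 18.17 to 18.79 in the 4 libraries. Of the 11 markers, limma called Trf lower and none higher. At an unadjusted p under 0.05, 1 was lower and 0 higher, against 10.3% and 12.1% of all genes. Of the 31-base stretches of Trf, 63.9% occur in transcripts of other genes.

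In WT replicate 1, where the hepatocyte median was the lowest of the 4 libraries, Pon1 was at 11.42, Hp at 18.27 and Rbp4 at 14.64, all above both FLCNKO values of the same gene. Without WT replicate 2, the log2 differences were -2.72 for Pon1, -1.73 for Hp and -2.00 for Rbp4. Agt, at 11.30 in WT replicate 1 and 11.88 in WT replicate 2, had a difference of 0.90 without WT replicate 2 and 0.31 without WT replicate 1. The part of hepatocyte RNA in these values was not tested.

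**Figure D3:**
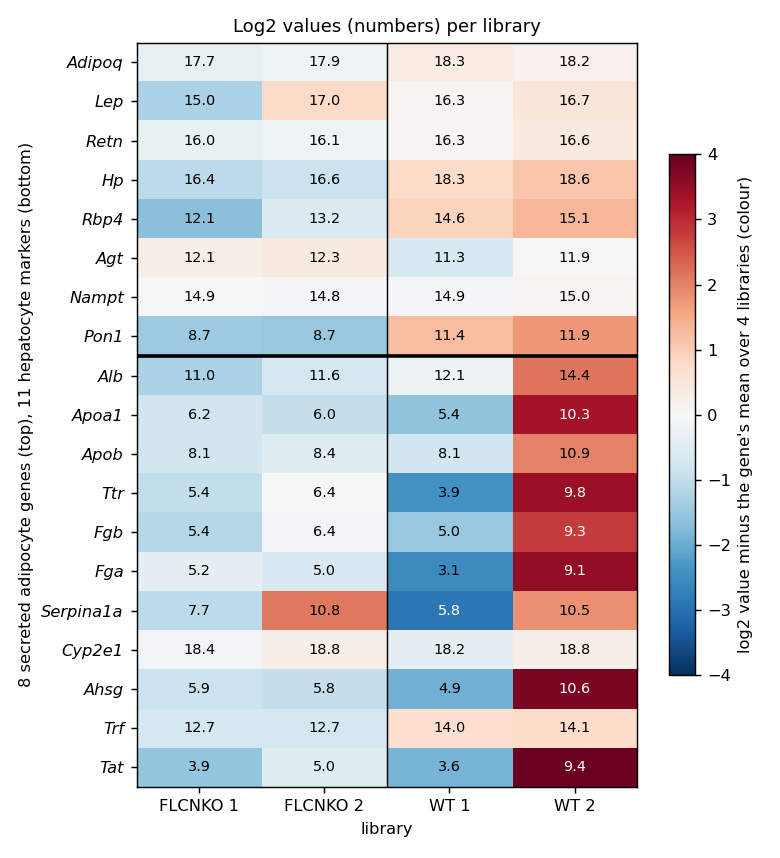
Deposited log2 values (printed numbers) of the 8 secreted adipocyte genes and of 11 hepatocyte markers in each library, with FLCNKO libraries on the left and WT libraries on the right; colour is the value minus the mean of that gene over the 4 libraries. Of the 11 hepatocyte rows 9 are highest in WT replicate 2, while Pon1, Hp and Rbp4 are higher in both WT libraries.

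The regions before the transcription start were read for the 8 genes from the RefSeq promoter table (GRCm38.p6), which had 8 start sites for 7 of them and none for Hp. Each window holds the 250 bases before the start. They were searched for the core of the C/EBP site (TTNNGCAA, both strands), the E-box CACGTG bound by MiT/TFE factors (which reads the same on both strands), the direct repeat of PPAR and RXR, which joins AGGTCA to a second copy across 1 free base (both strands), and TATAAA (the strand of the gene only). These motifs do not overlap in the 3 windows printed. Over all 32851 windows of that length, 9.56% held the C/EBP core, 6.02% the E-box, 0.0335% the direct repeat and 7.59% the TATA letters. The windows of Pon1 and Rbp4 are shown because these genes had the largest negative differences among those with a sequence, and that of Lep because it had the widest spread within FLCNKO. Capitals mark the matches.
Pon1 (chr6:5193947-5194196, minus strand): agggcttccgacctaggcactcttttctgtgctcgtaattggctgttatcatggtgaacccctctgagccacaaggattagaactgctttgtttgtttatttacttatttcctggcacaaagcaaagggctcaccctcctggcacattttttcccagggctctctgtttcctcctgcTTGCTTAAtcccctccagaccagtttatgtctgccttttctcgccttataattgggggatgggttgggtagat
Rbp4 (chr19:38124812-38125061, minus strand): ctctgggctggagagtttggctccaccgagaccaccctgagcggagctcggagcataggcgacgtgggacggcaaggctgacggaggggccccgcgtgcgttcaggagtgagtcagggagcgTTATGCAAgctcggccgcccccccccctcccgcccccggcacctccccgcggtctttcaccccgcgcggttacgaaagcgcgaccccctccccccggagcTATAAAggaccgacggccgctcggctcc
Lep (chr6:29059971-29060220, plus strand): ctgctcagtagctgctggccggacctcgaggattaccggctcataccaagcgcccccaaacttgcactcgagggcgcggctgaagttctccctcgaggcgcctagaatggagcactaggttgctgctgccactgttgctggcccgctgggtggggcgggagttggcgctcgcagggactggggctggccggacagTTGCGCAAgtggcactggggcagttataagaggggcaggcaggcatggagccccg

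The C/EBP core lay 73 bases before the start in Pon1, read there on the other strand, 128 bases before it in Rbp4 and 55 bases before it in Lep. The other start site of Rbp4 and the windows of Adipoq, Retn, Agt and Nampt held no C/EBP core. TATAAA was found 28 bases before the start in Rbp4 and 30 bases before it in Agt. None of the 8 windows held the E-box or the direct repeat in these letters. A match of this kind occurred both in genes with large differences and in Lep, and is a description of the sequence only.

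Genes of the transcription factors that are known to act on adipokine genes were also read. Ppara, a nuclear receptor that switches on fatty acid oxidation, rose by 3.10 on the log2 scale, at 12.97 and 12.76 in FLCNKO and 9.65 and 9.88 in WT (limma adjusted p = 0.0336). It was the 1 call among 16 measured, against 0.98% of all genes called higher and 0.614% lower. The median log2 difference of the 16 genes was -0.13, with 1 higher and 4 lower at an unadjusted p under 0.05, against 12.1% and 10.3% of all genes. After Ppara, the smallest p belonged to Rxra, Stat3 and Cebpd. Cebpd, which binds C/EBP sites early in fat cell formation, had 9.96 and 9.96 in FLCNKO and 11.56 and 10.57 in WT (-1.10 ± 0.33, SE; adjusted p = 0.147). The C/EBP genes of the list did not go 1 way. Cebpb had 11.66 and 11.03 in FLCNKO and 11.02 and 10.47 in WT (0.60 ± 0.29, adjusted p = 0.292). Cebpa overlapped, at 14.97 and 15.27 in FLCNKO and 15.44 and 15.13 in WT (-0.16 ± 0.17, adjusted p = 0.627).

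Other secreted factors of fat tissue showed 1 call among 41 measured genes, against 0.614% of all genes called lower and 0.98% higher. C1qtnf7, a paralogue of adiponectin in the C1q/TNF family, fell by 1.24 on the log2 scale, at 8.68 and 8.75 in FLCNKO and 9.88 and 10.02 in WT (SE 0.16; limma adjusted p = 0.0476). The median of this list was -0.19, and at an unadjusted p under 0.05 4 were higher and 15 lower, against 12.1% and 10.3% of all genes. Its relative C1qtnf1 (-0.98 ± 0.15, adjusted p = 0.0549) and the follistatin-like gene Fstl1 (-1.10 ± 0.19, adjusted p = 0.0625) did not pass. Cfd, the gene of adipsin, a protease that mature adipocytes secrete in large amounts, had values of 19.02 and 18.71 in FLCNKO and 20.06 and 19.93 in WT (-1.13 ± 0.21, adjusted p = 0.0691). Retnla, the resistin-like gene and the 1 measured relative of Retn, had values of 14.99 and 14.39 in FLCNKO and 16.34 and 15.76 in WT (-1.36 ± 0.28, adjusted p = 0.0802), and 5.45% of its 31-base stretches occur in transcripts of Retnlg.

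**Figure D4:**
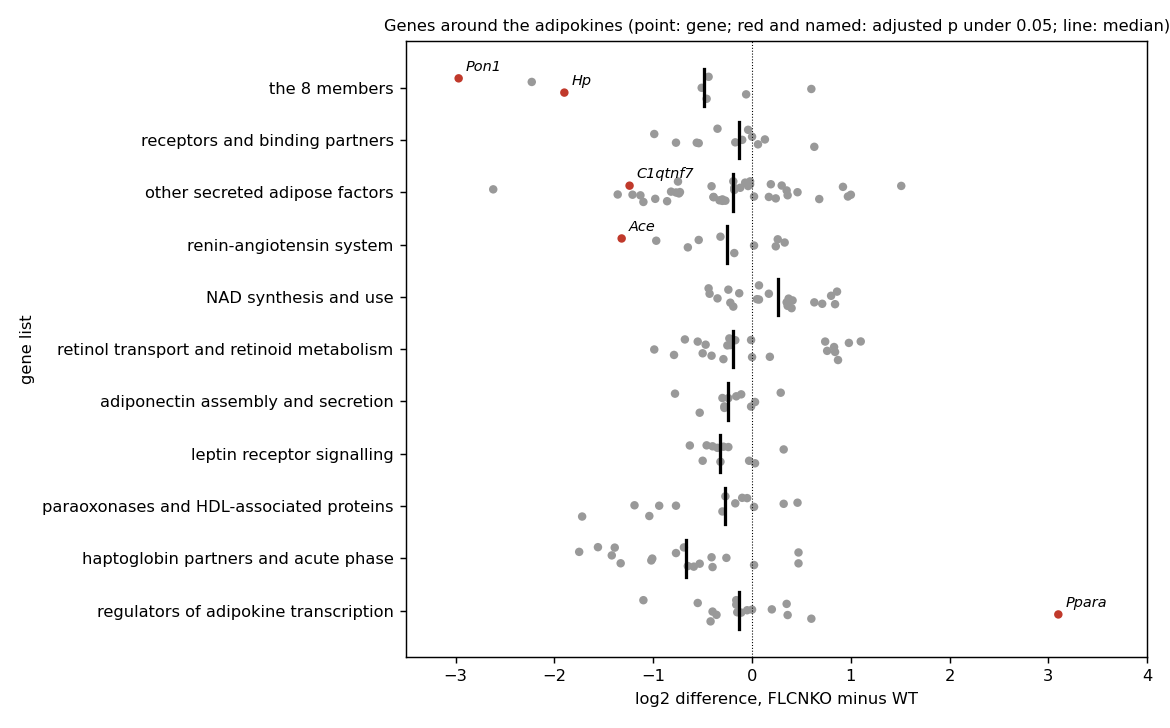
Log2 difference, FLCNKO minus WT (horizontal axis), of every measured gene in the lists around the 8 secreted genes (vertical axis); points are genes, red points with a name passed the adjusted threshold and black lines are medians. Pon1, Hp, Ace and C1qtnf7 are the named points on the lower side and Ppara, at 3.10, the 1 on the higher side.

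The genes whose profiles over the 4 libraries were most like those of the 4 members spanning more than 1 log2 unit were found by the Euclidean distance between profiles centred on their own means. For Pon1 these were Anxa8 (0.443), Adamts15 (0.465) and Trp63 (0.559). For Rbp4 they were Alkal2 (0.454), Vnn1 (0.533) and Celsr2 (0.536), and for Hp St6galnac5 (0.242), 9330159F19Rik (0.244) and Fos (0.316). Lep was nearest to Gdf5 (0.162), Tmem198 (0.172) and Dnah3 (0.204). Within a distance of 0.5 there were 2 genes for Pon1, 1 for Rbp4, 18 for Hp and 20 for Lep. With 4 libraries such likeness is a description only.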

How the data were processed

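Each library has its own table deposited by the authors, with log2 values for 13677 genes under Ensembl identifiers. Per the submitters' processing notes, STAR and limma were used with build mm9, and no versions are stated. The counter, annotation, filter and strandedness are not given in the sources used. The values are not per length, and their equal distributions hide any shift shared by most genes. Identifiers were paired with symbols for 13592 genes. Groups came from the library titles.

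The contrast was fitted with limma 3.58.1 in R 4.3.3 with group as the only term, variances moderated with a trend (2 residual and 3.09 prior degrees of freedom), two-sided tests, no filter and Benjamini-Hochberg adjustment over all genes. The fit was tested on simulated data. The members and lists were chosen with earlier results of these data known. Named were the 8 members, Flcn, the main relatives and receptors, the list genes past the threshold or otherwise up to 4 with the smallest p, and the 3 most similar profiles of each member spanning more than 1. Atp6ap2, Cebpa and Cebpb were named besides, whatever their p. Stra6, a receptor gene on the list of genes to name and not a member, is not analysed here. Alternatives were a filter, 3 normalizations, 2 variance settings, a replicate block and leaving out each library. Figures were drawn with matplotlib 3.10.9.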

Additional observations from a re-analysis of the deposited data

How the results depend on the processing

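Against 134 genes higher and 84 lower, limma called 0 in each direction without the trend (1508 and 1194 at an unadjusted p under 0.05), and 0 in each direction when any 1 library was left out (unadjusted counts from 756 to 1733 higher and from 639 to 1722 lower). Genes called lower numbered 138 when genes with a mean under 8 were left out, 219 when centred on white adipocyte markers and 143 with robust estimation. Of the 8 secreted genes, the 2 called lower became 0 without the trend (4 at an unadjusted p under 0.05) and 0 without any 1 library (from 3 to 5). With a replicate block, 401 genes were higher and 441 lower, Rbp4 passed (adjusted p = 0.0221), and Pon1 and Hp kept their calls; same-numbered libraries deviated together with a correlation of 0.363 over genes, but with 2 pairs and no label behind the number this does not show pairing. The direction changed for Lep, to 0.50 without FLCNKO replicate 1 (range -1.52 to 0.50), and for Nampt, to 0.0045 without WT replicate 2 (range -0.13 to 0.0045). Pon1 and Hp were called under repeated quantile normalization, median centring, adipocyte centring, the filter, robust estimation and the block. The cause of these dependences was not tested. Depth is unknown.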

Other observations

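Some other genes also differed between the FLCNKO-labelled libraries. Mest, Sfrp5 and Npr3, 3 genes of the list of other secreted factors that were chosen here after their values were seen, were also lower in FLCNKO replicate 1 than in FLCNKO replicate 2. Others of that list went the other way, such as Gpx3, at 17.58 and 16.69 in FLCNKO and 16.09 and 16.18 in WT, and Ccn3, at 8.95 and 7.76 in FLCNKO and 9.45 and 8.90 in WT, both also chosen after their values were seen. The muscle creatine kinase gene Ckm, a skeletal muscle marker chosen in the same way, was at 12.61 and 3.94 in FLCNKO and 13.93 and 10.59 in WT. Mest, known in mice as a marker of fat tissue expansion, had log2 values of 8.92 and 11.63 in FLCNKO and 13.40 and 12.38 in WT. Sfrp5, an inhibitor of Wnt signalling, had 9.35 and 12.24 in FLCNKO and 12.27 and 11.04 in WT. Npr3, the natriuretic peptide clearance receptor, had 14.59 and 16.29 in FLCNKO and 15.24 and 15.68 in WT. None passed the threshold between the groups (limma adjusted p = 0.187 for Mest, 0.662 for Sfrp5 and 0.99 for Npr3).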
